A study of Rattus norvegicus with 6 samples.

Results

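Tug1 is a long non-coding RNA gene on rat chromosome 14, and it was examined here together with 9 protein-coding genes around its locus: Morc2, Smtn, Selenom, Pes1, Inpp5j, Rnf185, Limk2, Osbp2 and Pik3ip1. The 10 genes were chosen by symbol from the 40456 gene entries of the count table. All 10 had an entry, and 8 passed the filter on low counts and were tested, the exceptions being Inpp5j and Osbp2. Poly-A RNA was sequenced from H9c2 (2-1) cells, a single cell line of embryonic rat heart origin, of wild-type genotype in both groups. All cells had been differentiated for 5 days in low serum with 1 µM retinoic acid. For the last 24 h, 3 samples had received a negative control LNA gapmer and 3 a Tug1 LNA gapmer, each at 25 nM. Only 1 gapmer sequence was used against Tug1, and nothing in the labels says whether the 3 samples of a group were grown independently, so the p-values measure the spread between these samples, which may be technical.

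Tug1, taurine upregulated 1, is a conserved and widely expressed long non-coding RNA that is found in the nucleus and the cytoplasm. Some long non-coding RNAs act on the genes beside them, through the RNA or through the act of transcription, and others act on distant genes or in the cytoplasm, so the neighbours are commonly read out when such an RNA is depleted. An LNA gapmer is a short DNA oligonucleotide with locked nucleic acid ends. It pairs with an RNA and recruits RNase H, which cuts that RNA and leaves the gene in place.

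The oligonucleotides define the comparison, and both are shown as the protocol gives them, 5′ to 3′, with the RNA site that the Tug1 gapmer pairs with written as DNA.
Tug1 gapmer: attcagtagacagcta
Target site of the Tug1 gapmer: tagctgtctactgaat
Negative control gapmer: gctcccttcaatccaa
Both were 16 bases long, with 6 G or C bases in the Tug1 gapmer and 8 in the control. Where the site lies along the Tug1 transcript was not analysed here. The 16-letter target site was in 0 of 33469 RefSeq promoter windows. Transcripts were not searched, so this says nothing about other RNAs that the gapmer could pair with.

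In RefSeq's gene models for GRCr8, a rat genome assembly, Tug1 is read from the minus strand and Morc2 from the plus strand, away from each other. A further minus-strand gene model, LOC134481691, covers nearly all of Tug1 and starts farther 5′, where its span and the outer edge of the Morc2 span overlap by a few bases. RefSeq lists LOC134481691 as a protein-coding gene separate from Tug1, and it had no entry in the counts. The Morc2 start that RefSeq's window is drawn from lies farther in, so the windows shown do not overlap. The 250 bases before the start of LOC134481691, which lie within the Morc2 span, are shown because the starts of both gene models lie close by. Next come the windows before the listed starts of Morc2, Smtn, Selenom and Pes1, whose transcripts rose or fell in the results below. Rnf185 and Pik3ip1 also rose there, but their windows are not shown. Capitals mark matches, on either strand, to 6 promoter motifs: the GC box (GGGCGG), the CCAAT box (CCAAT), the E-box (CACGTG), the TATA box (TATAAA), the YY1 core (AAGATGG) and the CRE core (TGACG).
Tug1 side, LOC134481691 (GRCr8 chr14:82752455-82752704, minus strand): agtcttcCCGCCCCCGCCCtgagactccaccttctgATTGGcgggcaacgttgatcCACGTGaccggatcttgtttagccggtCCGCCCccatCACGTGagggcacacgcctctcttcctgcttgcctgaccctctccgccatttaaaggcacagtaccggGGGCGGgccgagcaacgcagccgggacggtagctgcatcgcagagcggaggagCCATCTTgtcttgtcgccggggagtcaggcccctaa
Morc2 (GRCr8 chr14:82752960-82753209, plus strand): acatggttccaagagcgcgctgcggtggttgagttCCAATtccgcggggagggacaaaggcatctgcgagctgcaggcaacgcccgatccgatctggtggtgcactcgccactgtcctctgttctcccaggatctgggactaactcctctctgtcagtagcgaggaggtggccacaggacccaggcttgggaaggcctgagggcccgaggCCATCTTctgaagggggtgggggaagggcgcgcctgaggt
Smtn (GRCr8 chr14:82644515-82644764, minus strand): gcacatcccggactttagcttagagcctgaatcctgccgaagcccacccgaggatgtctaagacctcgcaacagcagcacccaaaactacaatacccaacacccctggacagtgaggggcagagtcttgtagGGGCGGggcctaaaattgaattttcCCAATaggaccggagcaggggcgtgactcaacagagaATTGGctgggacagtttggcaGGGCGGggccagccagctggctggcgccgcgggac
Selenom (GRCr8 chr14:82619203-82619452, plus strand): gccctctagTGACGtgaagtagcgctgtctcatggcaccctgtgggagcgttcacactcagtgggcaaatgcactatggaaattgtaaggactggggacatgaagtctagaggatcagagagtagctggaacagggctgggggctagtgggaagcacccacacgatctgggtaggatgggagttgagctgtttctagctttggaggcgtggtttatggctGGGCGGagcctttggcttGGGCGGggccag
Pes1 (GRCr8 chr14:83074096-83074345, plus strand): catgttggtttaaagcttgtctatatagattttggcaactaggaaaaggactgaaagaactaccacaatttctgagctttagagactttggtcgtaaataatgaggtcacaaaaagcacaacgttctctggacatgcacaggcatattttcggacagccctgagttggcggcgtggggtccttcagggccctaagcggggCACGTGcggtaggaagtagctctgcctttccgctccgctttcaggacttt
The window on the Tug1 side, before LOC134481691, held 4 GC boxes, 1 CCAAT box, 2 E-boxes and 1 YY1 core. It had 21 CpG pairs and 64.0% G or C, against a median of 5 CpG pairs and 51.2% over 33465 RefSeq windows. The window that RefSeq's start of Tug1 itself gives had 1 CpG pair and 32.8% G or C. Morc2 had 1 CCAAT box and 1 YY1 core, Smtn 2 GC boxes and 2 CCAAT boxes, Selenom 2 GC boxes and 1 CRE core, and Pes1 1 E-box. Among neighbours whose windows are not shown, Rnf185 had 1 GC box, Pik3ip1 0 matches, Limk2 3 GC boxes, and Osbp2 6 GC boxes and 1 E-box. Over all windows, 30.5% held a GC box, 34.0% a CCAAT box, 5.59% an E-box, 12.9% a TATA box, 4.62% a YY1 core and 18.2% a CRE core. No motif contains another, and a match describes letters, not a bound site.

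The shallowest library held 12978548 counts and the deepest 13544337. Levels are in CPM, counts scaled to library size, with TMM factors that correct for composition. The detection limit of 3 counts stood for 0.221 to 0.231 CPM on library totals, before the TMM factors, and covers counting error only. Muscle genes marked the cells: the controls had 349 ± 18.0 CPM of Tnnt2, cardiac troponin T, and 275 ± 4.39 CPM of Myog, a skeletal muscle transcription factor (SD, n = 3), so the label of cardiomyocyte stands beside skeletal muscle markers. The summed level of 10 muscle markers was 1325 to 1389 CPM in controls and 1868 to 1946 CPM after knockdown. At an adjusted p below 0.05, 8 were higher and 1 lower, where 30.8% of all tested genes were higher and 30.9% lower. The lower one was Myod1 (log2 fold change -0.32), and Mef2c (-0.03) did not pass. The summed markers of other cell types were 3.02 to 4.47 CPM in controls and 2.81 to 3.91 CPM after knockdown for endothelium, 3.14 to 5.19 and 6.45 to 8.88 CPM for blood cells, 77.0 to 89.3 and 52.8 to 57.2 CPM for epithelium, and 15.2 to 17.4 and 4.14 to 5.44 CPM for neural cells. A single gene gave most of each sum: Tek for endothelium, Cd68 for blood cells, Krt8 for epithelium (82.7 ± 6.05 CPM in controls, 54.2 ± 2.46 CPM after knockdown) and Tubb3 for neural cells (15.7 ± 1.21 and 4.05 ± 0.456 CPM, SD, n = 3). The other markers of these lists averaged under 1 CPM in either group. Of the 4 blood markers Ptprc and Adgre1 were at 0 in every library. The part of these markers in the values below was not tested.

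Tug1 itself was lowered to 22.0% of its control level. It stood at 54.7, 52.0 and 55.4 CPM in control replicates 1 to 3 and at 11.9, 11.2 and 12.5 CPM in knockdown replicates 1 to 3. The groups were 39.6 CPM apart at their closest, and each group was tight, with coefficients of variation of 3.28% and 5.13%. The log2 fold change, knockdown over control, was -2.19 (95% confidence interval -2.36 to -2.02, edgeR quasi-likelihood test, adjusted p = 4.39e-16). Of the 14216 tested genes, 78 had a lower log2 fold change than Tug1, so that, with Tug1 counted, 79 or 0.556% fell at least as far and were called. In these bulk libraries, fewer cells of a type and less RNA per cell cannot be told apart.

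Among the 9 neighbours, 4 rose, 2 fell, 1 did not pass the test and 2 were too low to test. Genes with an adjusted p below 0.05 are termed called. With Tug1 included, 7 of the 8 tested members were called. That count stands against a background in which 61.7% of all tested genes were called, 30.8% of them higher and 30.9% lower, both as shares of the tested genes. The median absolute log2 fold change of the 7 tested neighbours was 0.35, and that of all tested genes was 0.34. Their median signed value was 0.24, against 0.00 for all tested genes. Each tested neighbour had a fold change far smaller than that of Tug1.

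**Figure D1:**
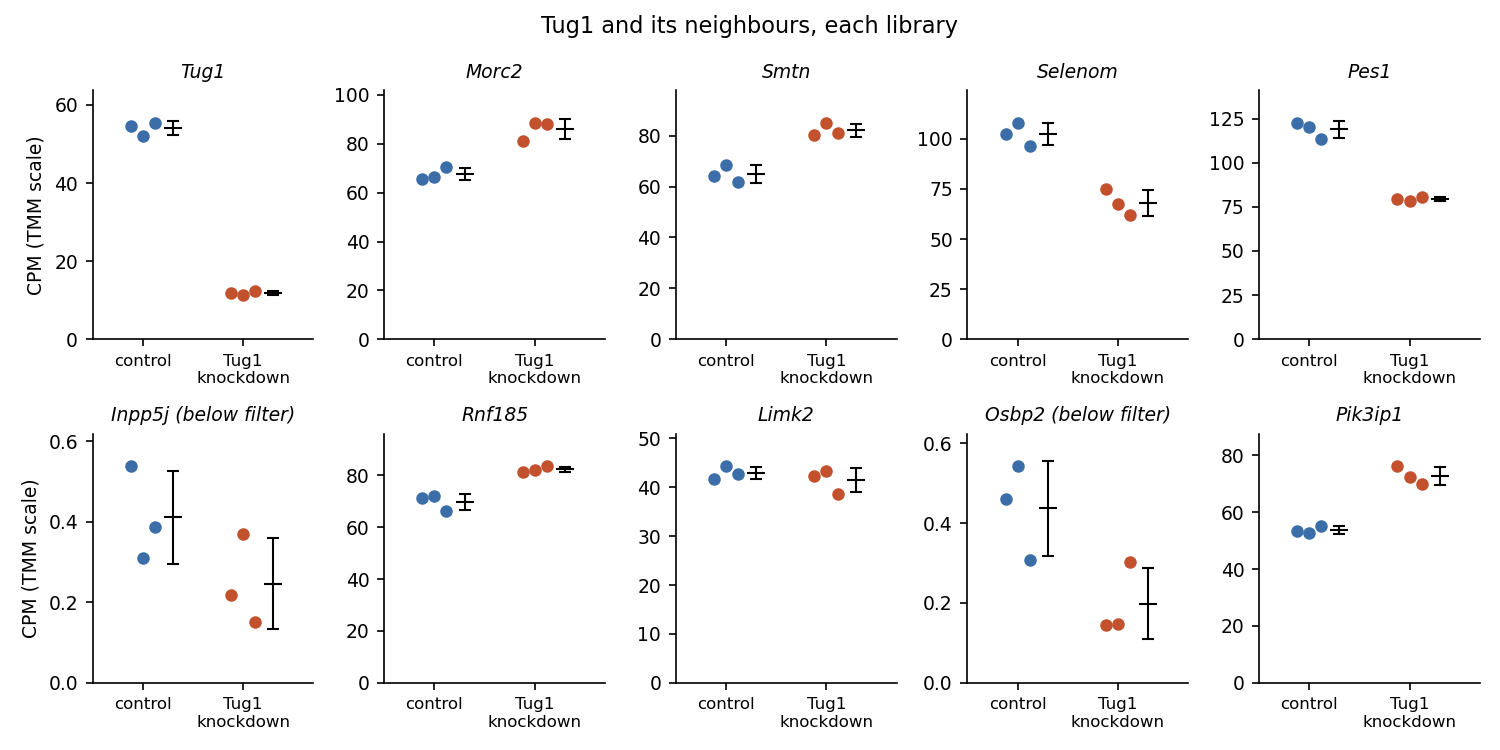
Level of each of the 10 genes in every library, in CPM on the TMM scale, each panel with its own axis from 0. Points are libraries (blue control, red Tug1 knockdown) and the bars beside them give the mean and SD of 3 libraries. Among the 8 tested genes the groups are apart for Tug1 and 6 neighbours and overlap for Limk2. Over all tested genes the groups are apart for 65.6%. Inpp5j and Osbp2 lie at or under 0.542 CPM.

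Morc2 is the closest protein-coding neighbour on the 5′ side of Tug1 and encodes an ATPase of the MORC family, which works with the HUSH complex in silencing chromatin. It had 65.7, 66.5 and 70.3 CPM in the controls and 81.3, 88.5 and 88.2 CPM after knockdown. All 3 knockdown libraries lay above all 3 controls. The log2 fold change was 0.35 (95% confidence interval 0.23 to 0.47, edgeR adjusted p = 1.37e-05), or 127% of the control level. Because Tug1 fell and Morc2 rose, the ratio of Morc2 to Tug1 counts within a library, which does not depend on scaling, went from 1.25 ± 0.0419 to 7.27 ± 0.541 (SD, n = 3). The controls ran from 1.20 to 1.28 and the knockdown libraries from 6.84 to 7.88. The exact permutation p was 0.1 (two-sided), the smallest that 3 against 3 libraries can give. With the groups of both genes apart in opposite directions, the ratios had to be apart as well, so this test adds nothing to the separate results.

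Osbp2, the next annotated protein-coding gene with an entry on that side, encodes an oxysterol-binding protein of the ORP family that binds sterols and phosphoinositides. It was near the detection limit, with 6, 7 and 4 counts in the controls and 2, 2 and 4 counts after knockdown. The summed counts were 17 (95% Poisson interval 9.90 to 27.2) and 8 (3.45 to 15.8), and these intervals overlap. Without the filter its log2 fold change was -1.12 (95% confidence interval -2.63 to 0.39, edgeR adjusted p = 0.263), which did not pass. The CPM values of the groups did not overlap, by a margin of 0.00641 CPM, and an exact permutation test on CPM gave p = 0.1 (two-sided), the smallest that 3 against 3 libraries can give. The lowest control and the highest knockdown library both had 4 counts.

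Pes1, farther out on the 5′ side, encodes pescadillo, a subunit of the PeBoW complex that matures the large ribosomal subunit. It fell from 122, 120 and 113 CPM to 79.7, 78.3 and 80.7 CPM. The knockdown libraries were close together and at least 32.8 CPM below the lowest control. The log2 fold change was -0.58 (95% confidence interval -0.69 to -0.47, edgeR adjusted p = 2.41e-09), which left 67.0% of the control level.

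On the 3′ side, Smtn and Selenom are next to each other and are read towards each other, and their transcripts moved in opposite directions. Smtn encodes smoothelin, a cytoskeletal protein of contractile smooth muscle. It had 64.0, 68.7 and 61.7 CPM in the controls and 80.2, 85.0 and 81.0 CPM after knockdown. The groups did not overlap, and the log2 fold change was 0.34 (95% confidence interval 0.22 to 0.46, edgeR adjusted p = 2.15e-05). The summed muscle markers given above were higher in the same libraries, and their part in the Smtn value was not tested.

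Selenom encodes selenoprotein M, a thioredoxin-like protein of the endoplasmic reticulum. It fell from 103, 108 and 96.6 CPM to 75.0, 67.2 and 62.1 CPM. Every knockdown library was below every control, with the widest relative spread among the called neighbours after knockdown, a coefficient of variation of 9.57%. The log2 fold change was -0.59 (95% confidence interval -0.72 to -0.45, edgeR adjusted p = 4.66e-08), or 66.5% of the control level. The ratio of Smtn to Selenom counts rose from 0.624, 0.636 and 0.638 in control replicates 1 to 3 to 1.07, 1.26 and 1.31 in knockdown replicates 1 to 3. Its exact permutation p was 0.1, again the smallest possible. Here too the groups of both genes were apart in opposite directions, which fixed that outcome.

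Inpp5j encodes an inositol polyphosphate 5-phosphatase that acts on membrane phosphoinositides. It had 7, 4 and 5 counts in the controls and 3, 5 and 2 after knockdown, and the groups overlapped. The sums were 16 (95% Poisson interval 9.15 to 26.0) and 10 (4.80 to 18.4). Without the filter the log2 fold change was -0.73 (95% confidence interval -2.15 to 0.70, edgeR adjusted p = 0.495).

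Rnf185 encodes a ubiquitin ligase of the endoplasmic reticulum and mitochondrial membranes. It had 71.3, 71.9 and 66.3 CPM in the controls and 81.3, 82.2 and 83.5 CPM after knockdown. The rise was the smallest among the called members, a log2 fold change of 0.24 (95% confidence interval 0.12 to 0.35, edgeR adjusted p = 0.000754), yet the groups stood 9.34 CPM apart.

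Limk2 and Pik3ip1 share a stretch of chromosome, since RefSeq places Pik3ip1 on the plus strand inside the span of the minus-strand gene Limk2. Limk2 also overlaps the tested gene Patz1, Rpl7-ps1 and LOC120096766, and Rnf185 overlaps LOC134481864. The libraries were made with a stranded kit, but whether strand was used in counting is not given in the sources used here. Reads from these shared stretches therefore cannot be assigned with certainty. Pik3ip1 encodes a transmembrane protein that inhibits the catalytic subunits of phosphoinositide 3-kinase. It rose from 53.2, 52.9 and 55.3 CPM to 76.1, 72.4 and 69.8 CPM, the largest rise among the members. Its log2 fold change was 0.44 (95% confidence interval 0.32 to 0.56, edgeR adjusted p = 8.14e-07), or 135% of the control level.

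Limk2 encodes LIM kinase 2, which phosphorylates cofilin and so slows the turnover of actin filaments. It had 41.8, 44.3 and 42.6 CPM in the controls and 42.4, 43.4 and 38.7 CPM after knockdown, and the groups overlapped. The log2 fold change was -0.05 (95% confidence interval -0.19 to 0.09, edgeR adjusted p = 0.555). The sign depended on knockdown replicate 3, without which it was 0.0026, and on scaling, since library totals gave 0.0050. A correction for gene length gave -0.28 (edgeR adjusted p = 0.00100) and a call of lower. The ratio of Pik3ip1 to Limk2 counts went from 1.25 ± 0.0538 to 1.76 ± 0.0764 (SD, n = 3). The groups did not overlap, and the exact permutation p was 0.1, the smallest possible. Limk2 varied too little between libraries to close the gap in Pik3ip1, so this test adds nothing to the separate results.

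**Figure D2:**
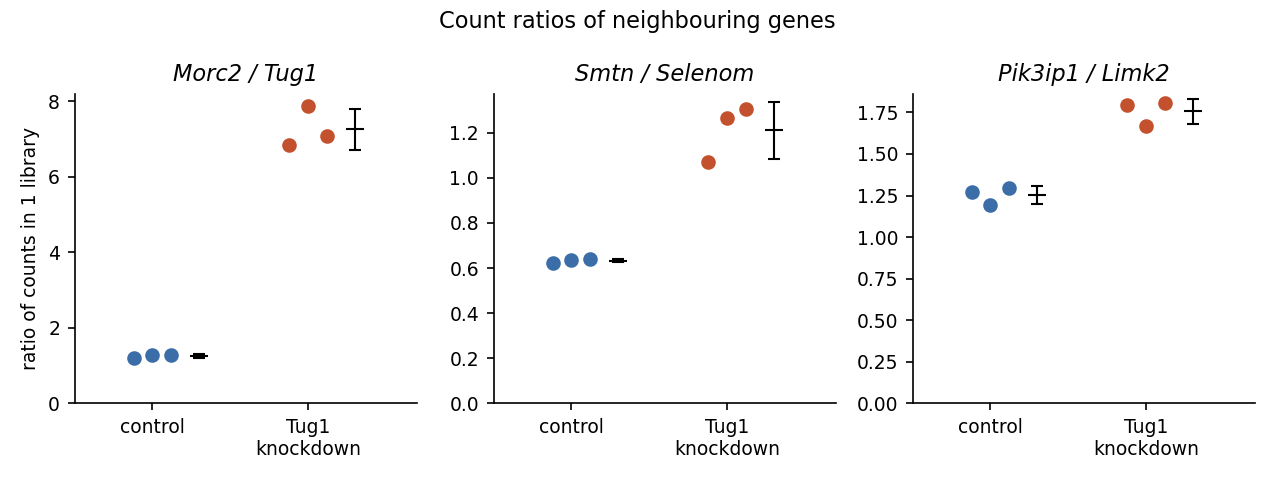
Ratio of the counts of adjacent genes within each library, for Morc2 over Tug1, Smtn over Selenom and Pik3ip1 over Limk2, on axes from 0. Points are libraries, and the bars beside them are the mean and SD of 3. In each panel the 3 knockdown libraries lie above the 3 controls. The shift is 5.81 times for Morc2 over Tug1, 1.92 times for Smtn over Selenom and 1.40 times for Pik3ip1 over Limk2. For Morc2 over Tug1 and Smtn over Selenom this separation follows from the opposite directions of the genes themselves. For Pik3ip1 over Limk2 it follows from the rise of Pik3ip1 and the small spread of Limk2.

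The wider locus was compared in gene order. Within 500 kb of Tug1 the table listed 42 other genes, of which 32 had an entry in the counts and 21 were tested, 10 on the 3′ side and 11 on the 5′ side. On the 3′ side 7 were called, 3 higher and 4 lower, and on the 5′ side 7 were called as well, also 3 higher and 4 lower. The 14 called genes were 66.7% of those tested, near the background of 61.7%. With the correction for gene length 17 of the 21 were called, where 62.1% of all tested genes were. The groups did not overlap for 14 of the 21, against 65.6% of all tested genes. Directions were mixed along the order: walking out from Tug1 on the 3′ side, the first 5 tested genes were lower, higher, lower, higher and higher.

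The nearest tested gene on the 3′ side was LOC108352784, an uncharacterised long non-coding RNA gene on the plus strand. It had 58, 46 and 41 counts in the controls and 27, 36 and 33 after knockdown, which is -0.65 on the log2 scale (SE 0.222, edgeR adjusted p = 0.0133). Its call was lost without control replicate 1 (adjusted p = 0.0881) and without knockdown replicate 1 (adjusted p = 0.0660). Over the alternatives that left out a library its log2 fold change ran from -0.75 to -0.51.

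Changes of at least 0.5 in size on the log2 scale were called for 6 of the 21 genes, or 28.6%, where 31% of all tested genes had such a call. On the 5′ side these were Pes1 and 3 more. RGD1308775, listed by RefSeq as C14h5orf52, had 9, 10 and 17 counts in the controls and 27, 27 and 20 after knockdown, which is 0.97 on the log2 scale (SE 0.327, edgeR adjusted p = 0.0110). That call was lost without control replicate 1 (adjusted p = 0.0645) or control replicate 2 (adjusted p = 0.0541). Sec14l2, which encodes a lipid-binding protein of the SEC14 family, fell from 106, 74 and 76 counts to 54, 58 and 41, which is -0.80 on the log2 scale (SE 0.186, edgeR adjusted p = 0.000638). Ccdc157, a coiled-coil protein gene, rose from 106, 112 and 108 counts to 176, 169 and 174, which is 0.61 on the log2 scale (SE 0.114, edgeR adjusted p = 6.73e-05). In RefSeq, Sec14l2 overlaps LOC102549281 on the opposite strand. Ccdc157 overlaps Sf3a1 and LOC134481866 on the opposite strand, and also Rnf215, a tested gene whose strand was not available here.

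**Figure D3:**
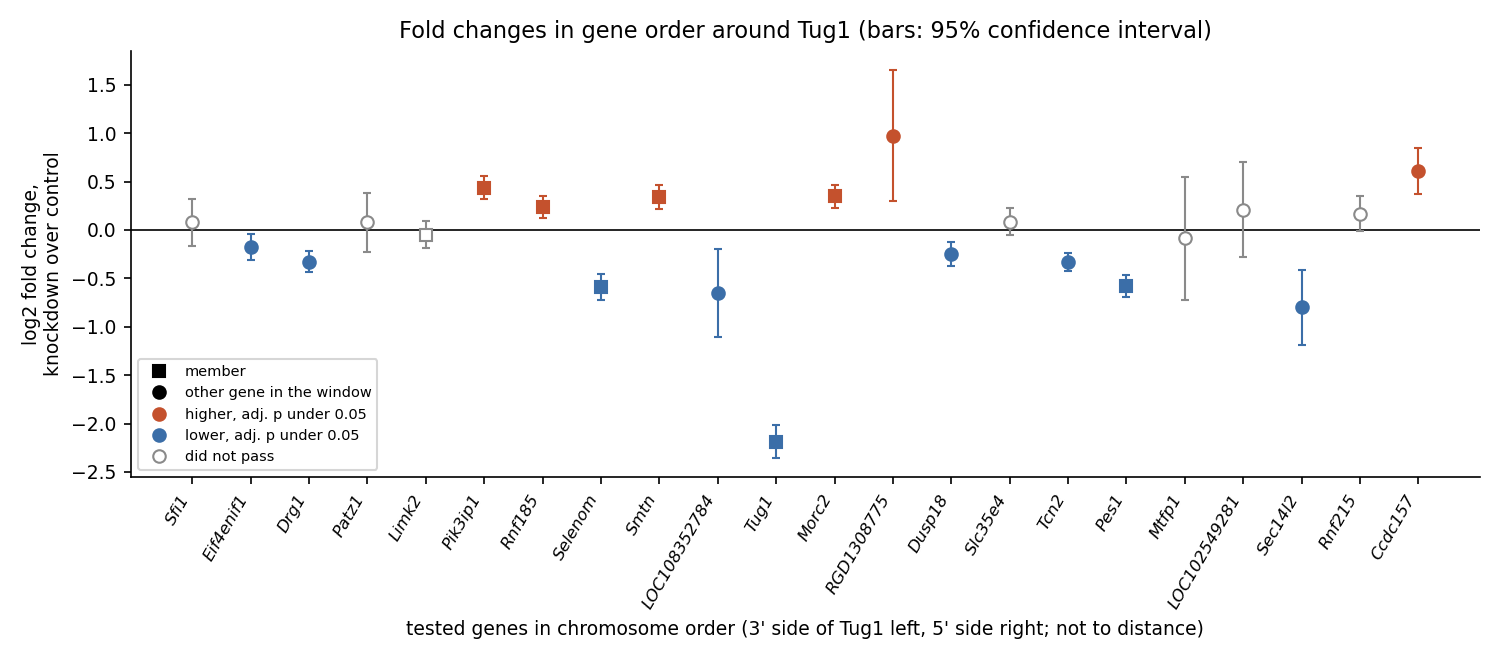
Log2 fold change, knockdown over control, of Tug1 and the 21 tested genes within 500 kb, placed in chromosome order and not to distance. Squares are the named members and circles the other genes, bars are 95% confidence intervals, and open symbols did not pass an adjusted p of 0.05. Tug1 at -2.19 lies below every other gene shown, and higher and lower genes are interleaved on both sides.

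The relatives and working partners of each neighbour were compared next, as counts from the same test. For Pes1, all 7 genes of a list of its complex and of other large-subunit assembly factors were called, 6 lower and 1 higher, where 61.7% of all tested genes were called and 30.9% were lower. The nucleolar factors Ftsj3 (-0.68 on the log2 scale) and Mybbp1a (-0.65) were lower, in the direction of Pes1, and Rrs1, another, fell from 41.0 to 20.5 CPM. Of the other PeBoW subunits, Bop1 was higher (0.32, from 74.8 ± 3.63 to 93.1 ± 4.04 CPM, SD, n = 3) and Wdr12 lower (-0.24). The median log2 fold change of the list was -0.32. With the correction for gene length 6 of the 7 were called, 1 higher and 5 lower, and the median was -0.28.

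For Morc2, 6 of 8 tested HUSH and MORC genes were called, 2 higher and 4 lower, against 61.7% of all tested genes. The relatives Morc3 (-0.82) and Morc4 (-0.52) were lower while Morc2 was higher. Trim28, a corepressor of KRAB zinc finger proteins, was lower (-0.54), and Atf7ip, a partner of the methyltransferase Setdb1, was higher (0.36, and 0.20 with the correction for gene length). Setdb1 itself was at -0.04 and did not pass. The list's median was -0.18. With the correction for gene length 7 of the 8 were called, 2 higher and 5 lower, and the median was -0.32.

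For Limk2, 9 of 17 tested genes of the LIM kinase and cofilin list were called, 7 higher and 2 lower, a smaller share than the 61.7% of all tested genes. Cdc42bpb (1.23) and Pak4 (0.70), kinases upstream of LIM kinases, were higher, as was Ssh1 (0.98), a phosphatase that reactivates cofilin. Cfl1, non-muscle cofilin, was lower (-0.51, from 799.5 ± 4.55 to 563 ± 21.1 CPM, SD, n = 3). Limk1 had a log2 fold change of 0.15 and did not pass, but was called at 0.24 without control replicate 2. With the correction for gene length 12 of the 17 were called, 6 higher and 6 lower. That was a larger share than the 62.1% of all tested genes called in that fit.

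For Smtn, 5 of 10 tested genes of the smoothelin and smooth muscle contractile list were called, 4 higher and 1 lower, again a smaller share than the 61.7% of all tested genes. Myh11 (1.07), Cald1 (0.60) and Acta2 (0.33), which encode smooth muscle myosin, caldesmon and smooth muscle actin, were higher, and Myl9 (-0.33), a myosin light chain, was lower. With the correction for gene length 6 of the 10 were called, where 62.1% of all tested genes were. In that fit Cald1 was at 0.30 and Myl9 at -0.21. The list's median was 0.07. For Selenom, 10 of 17 tested selenoprotein genes were called, 3 higher and 7 lower, near that background. Selenos (0.89), a membrane protein of endoplasmic reticulum quality control, was the largest rise, while Gpx1 (-0.50), Selenok (-0.30) and Selenot (-0.28) were lower. The median was -0.07. With the correction for gene length it was 0.05, and Gpx1 was at -0.26.

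For Rnf185, 7 of 11 tested genes of endoplasmic reticulum quality control were called, 1 higher and 6 lower, near the 61.7% of all tested genes. Its closest relative Rnf5 was at 0.01 and did not pass, but was called at 0.20 with the correction for gene length. Ube2j2 (-0.37) and Stub1 (-0.37) were lower and Sel1l (0.34) was higher. The call of Stub1 was lost with that correction (-0.17, edgeR adjusted p = 0.0551, and 0.0388 with the replicate block as well). For Pik3ip1, 7 of 8 tested genes of the phosphoinositide 3-kinase list were called, 2 higher and 5 lower, against the same background, and with the correction for gene length 5 were called, 1 higher and 4 lower. The catalytic subunit gene Pik3cd was lower by the widest margin (-1.72, from 37.1 ± 0.679 to 11.2 ± 1.60 CPM, SD, n = 3). Pik3c2a (-0.55) was lower, and the regulatory subunit gene Pik3r3 (0.52) was higher.

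The lists of the 2 barely detected neighbours held the most one-sided counts. Of 13 tested genes of the Osbp2 list, oxysterol-binding proteins and their anchors, 11 were higher and 0 lower, with a median log2 fold change of 0.63, against 30.8% of all tested genes called higher. Osbpl11 (1.18), Osbpl6 (1.04), Osbpl8 (0.99) and Osbpl3 (0.64) led it, and Osbp (0.07) and the anchor Vapa (-0.01) did not pass, though Osbp was called at 0.13 with library totals. DESeq2 and limma-voom, run on the same counts, also gave 0 lower genes. At an unadjusted p under 0.05, 0 were lower. With the correction for gene length the median was 0.35, with 10 higher, and Osbpl3 was at 0.35. Of 10 tested inositol 5-phosphatase genes, the relatives of Inpp5j, 7 were higher and 0 lower (1 lower at an unadjusted p under 0.05, Inpp5f, and 0 with DESeq2 or limma-voom), with a median of 0.46. Synj1 (1.43), Inpp5a (0.75), Inpp5k (0.58) and Synj2 (0.52) were among them. With the correction for gene length 7 were higher and 1 lower, Inpp5f, with a median of 0.29, and Inpp5a and Synj2 were at 0.44 and 0.32.

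**Figure D4:**
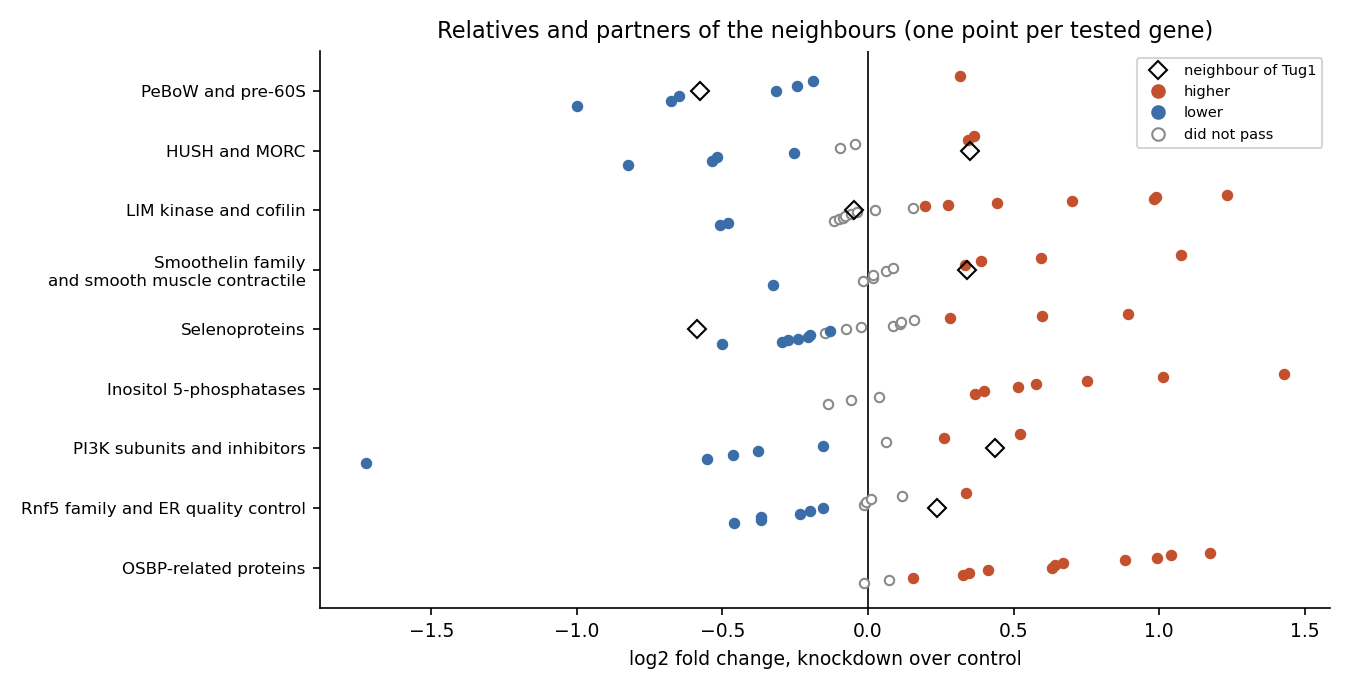
Log2 fold change, knockdown over control, of every tested gene in the 9 lists of relatives and partners, 1 point per gene, red higher, blue lower, and open where the adjusted p did not pass 0.05. Diamonds mark the neighbour of Tug1 that each list belongs to, with none for the lists of Inpp5j and Osbp2, which were not tested. The lists of OSBP-related proteins and of inositol 5-phosphatases hold no blue point, while the other lists hold both directions.

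Genes whose profile over the 6 libraries was most like that of Tug1 were ranked among 9442 genes with a mean of at least 10 CPM, by the root mean square difference of log2 CPM centred per gene. The closest were Hoxd13 (0.0583), Dusp6 (0.0637), Terf2 (0.0809), Tm4sf1 (0.0860) and LOC102550812 (0.101). Their own log2 fold changes were -2.16, -2.28, -2.06, -2.16 and -2.04, in that order. Dusp6 encodes a phosphatase that turns off ERK kinases and Terf2 a telomere-binding protein. Likeness here rests on 6 libraries in 2 groups, so it reflects a fall of similar size.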

How the data were processed

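RNA from 6 libraries was analysed, 3 per group, as grouped by the sample titles. Counts, as whole numbers with 1 entry per gene symbol, were deposited by the authors unscaled and not pooled. FastQC 0.11.7, fastp 0.14.1 and STAR 2.5 are named in the submitters' processing notes; the counting tool, build, annotation, use of strand and handling of multi-mapping reads are not given in the sources used here. There were 0 unnamed entries and 0 columns outside the 6 libraries.

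The fit used edgeR 4.0.16 in R 4.3.3. The expression filter (minimum count 10, minimum total 15) kept 14216 genes. TMM factors ran from 0.979 to 1.02. The quasi-likelihood test (two-sided, prior count 0.125) had group as its only term, and p-values were adjusted over all tested genes by the Benjamini-Hochberg method. Standard errors and 95% confidence intervals came from the same fit. Mean and SD are over 3 libraries. In library pairs of a group the variance of counts was 2.30 to 3.86 times the sampling noise, so no library was a copy of another.

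The members and lists were chosen with earlier results of these data known. All 10 members were named, with the neighbours within 500 kb that were called with a log2 change of 0.5 or more in size, the nearest tested gene on each side, up to 4 called genes with the smallest p in each list, and the 5 genes most like Tug1. A few list members outside this rule were named after their values were seen, and some within it are not reported here. Gene order, strands and promoter windows (250 bases) came from RefSeq, assembly GRCr8. Since the build of the counts is unknown, gene spans are not printed. Names matched that table for 30059 entries.

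Alternatives were DESeq2 1.42.0 (size factors and Wald test), library totals, limma-voom (limma 3.58.1), 2 other filters, an adjusted p under 0.01, a replicate block, a length offset (lowess on genomic span, span 0.3) and each library left out. The scripts were tested on simulated counts. The labels do not say whether same-numbered libraries were paired. Deviations of same-numbered libraries correlated at -0.0705, 0.144 and 0.079 over 9443 genes, which does not settle it.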

Additional observations from a re-analysis of the deposited data

How the results depend on the processing

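Tug1 and its called neighbours Morc2, Smtn, Selenom, Pes1, Rnf185 and Pik3ip1 kept their direction and call under all 16 alternatives each. When a library was left out, log2 fold changes ran from -2.22 to -2.15 for Tug1, 0.33 to 0.39 for Morc2, 0.31 to 0.38 for Smtn, -0.66 to -0.52 for Selenom, -0.61 to -0.56 for Pes1, 0.20 to 0.26 for Rnf185, 0.40 to 0.47 for Pik3ip1 and -0.0793 to 0.0026 for Limk2. The value of Limk2 was 0.0050 with library totals, 0.0026 without knockdown replicate 3, and -0.281 and called with the length offset (-0.282 with the replicate block as well). The number of changed members was 7 or 8. Changed genes within 500 kb numbered 11 to 15 of 21 over the fits that leave out a library. In those fits 56.0% to 58.1% of all tested genes were called. The count within 500 kb was 17 of 21 in either fit corrected for length. There 62.1% of all tested genes were called, or 62.3% with the replicate block. Taking the 20 nearest tested genes on each side instead, 40 in all, gave 28, or 70%, against 61.7% of all tested genes. With the replicate block the members' calls were as before and 8848 genes were called; 3 of 6 libraries correlated best with their own number in the other group. The count of all changed genes ran from 7353 to 8987. Library totals moved the median log2 fold change of all genes to 0.06 and the genes called higher within 500 kb from 6 to 7 of 14.

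Among 55 other genes of the window and the lists, the 5 most like Tug1 included, 45 kept direction and call throughout. Rnf215 and Slc35e4, not called in the fit reported above, were called higher in 5 and 2 of the 16 alternatives. Values that changed sign, none of them called in the fit reported above, were Sfi1 with the length offset (-0.0327, and -0.0325 with the block), Mtfp1 with the same (0.0737 and 0.0677) and without knockdown replicate 3 (0.0710), LOC102549281 without knockdown replicate 3 (-0.0288) and Patz1 without control replicate 1 (-0.0304, against up to 0.137 in the other fits that leave out a library). For Mtfp1 and LOC102549281 those fits ran from -0.292 to 0.0710 and from -0.0288 to 0.401. What caused these shifts was not tested. Depth limits Inpp5j and Osbp2, at 2 to 7 counts per library.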

Other observations

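Other genes of the locus that passed the test with smaller changes were singled out after their values were seen. Tcn2, which encodes the vitamin B12 carrier transcobalamin 2, had the most counts of any tested gene within 500 kb, with 4652, 4828 and 4602 in the controls and 3989, 3916 and 3763 after knockdown, which is -0.33 on the log2 scale (SE 0.0433, edgeR adjusted p = 6.43e-07). Drg1, a GTP-binding protein gene, fell from 1217, 1205 and 1180 counts to 977, 1007 and 1005, which is -0.33 on the log2 scale (SE 0.0538, edgeR adjusted p = 1.45e-05). Dusp18, a dual-specificity phosphatase gene, fell by 0.25 on the log2 scale (SE 0.0591, edgeR adjusted p = 0.000810). For each of these 3 genes every knockdown library lay below every control. Drg1 overlaps Eif4enif1 and Dusp18 overlaps Slc35e4 in RefSeq. Eif4enif1, which encodes a transporter of the cap-binding protein eIF4E, was at -0.18 (SE 0.0644, edgeR adjusted p = 0.0213). That call was lost with library totals (adjusted p = 0.104), with DESeq2 (0.0504), without control replicate 1 (0.134) and without knockdown replicate 1 (0.0766).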
